A study of Mus musculus with 9 samples.

Results

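Immediate-early genes are switched on within minutes of a stimulus by kinases and transcription factors that are already present in the cell, without new protein synthesis. Their mRNAs are short lived, and several of their products shut the response off again. In the kidney they are known from ischemia and toxic injury of the tubule, and also from the enzyme digestion and sorting that are used to isolate tubular cells. Here 10 of these genes were followed in proximal tubular cells of diabetic mice: Fos, Fosb, Jun, Junb, Egr1, Atf3, Ier2, Ier3, Dusp1 and Zfp36. They were chosen by name, and all 10 were among the 24421 genes of the deposited table and among the 15583 genes that passed the filter on low values.

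The cells came from C57BL/6 mice of 3 groups, with 3 mice and 1 library per mouse in each. All groups carried SLC34a1GCE, a tamoxifen-inducible Cre driven from the locus of a phosphate transporter of the proximal tubule, together with the R26tdTomato reporter. The db/m mice were the non-diabetic controls. The db/db mice, which lack a functional leptin receptor, become obese and hyperglycemic, and received vehicle. The db/db-dapa mice were db/db mice given 1.5 mg/kg/day of dapagliflozin, an inhibitor of the glucose transporter SGLT2, in drinking water for 8 weeks. All mice had received 5 injections of tamoxifen from 8 weeks of age. The tdTomato-positive cells of the cortex were digested for 30 min at 37 °C and sorted by FACS before RNA was isolated, in every group, so that no unsorted sample stands beside them. How much of any level below was set by digestion and sorting was not tested. The comparisons ask whether the genes differ with diabetes and with dapagliflozin.

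The db/m libraries held 4817721 to 6571572 counts, the db/db libraries 2733349 to 7635669 and the db/db-dapa libraries 6981225 to 9033123. Levels are given in CPM, counts relative to the TMM-scaled size of the library, and 3 counts correspond to between 0.339 and 1.02 CPM depending on the mouse. All members lay far above that floor in every mouse. The 10 proximal tubule markers summed to between 14300 and 21800 CPM and were above 0 in every mouse. Markers of the loop and distal nephron summed to between 741 and 2370 CPM and those of the collecting duct to between 127 and 554. In such bulk libraries, fewer cells of a type and less RNA per cell cannot be told apart.

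The members share a compact structure that their selection by name did not use. A single coding transcript was taken per gene from the GENCODE annotation of GRCm38 (mm10). By these transcripts, 10 of 10 members had at most 3 introns, against 21.6% of the 13974 tested genes with a coding transcript. Jun, Junb and Ier2 have 0 introns. The median number of introns was 1 for the members and 8 for all of these genes. The span from the first to the last base of the transcript was under 10 kb for 90% of the members, the exception being Atf3, and for 27.1% of all. The whole annotated gene can be longer. That of Dusp1 covers chr17:26505590-26562128, while its transcript used here, Dusp1-202, spans 2930 bases. The median span was 3286 bases, and the shortest was that of Ier3, 1240 bases on chr17:35821684-35822923. Transcripts with so short a span can be completed soon after a stimulus.

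The 3′ untranslated regions of most members were also rich in ATTTA (with U for T in the RNA), the core of the AU-rich elements through which mRNAs are marked for rapid decay. Zfp36 itself encodes tristetraprolin, a protein that binds such elements. At least 1 ATTTA was found in 9 of 10 members, all but Ier2, against 65.5% of all tested coding genes, and at least 3 were found in 60% against 33.8%. The median density was 3.56 per kb for the members and 1.245 per kb for all. Ier3 had the highest density of the 10, 5 copies or 8.16 per kb, followed by Dusp1 (5.80), Fos (4.91) and Junb (4.12). Egr1 (1.64) lay near the median of all genes, and Fosb, with 1 copy (0.47), lay below it. The longer element ATTTATTTA was found in Fos and Dusp1, or 20% of the members and 5.7% of all. The windows of 30 bases below show the element where it was densest in 4 members, as DNA in the sense of the mRNA, with ATTTA in capitals. They lie at chr12:85477100-85477129 (plus strand) for Fos, chr17:26506157-26506186 (minus) for Dusp1, chr17:35822484-35822513 (plus) for Ier3 and chr7:28376958-28376987 (minus) for Zfp36.
Fos: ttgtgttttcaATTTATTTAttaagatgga
Dusp1: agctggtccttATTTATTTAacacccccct
Ier3: ctaattaatATTTAtgtATTTAtgtatatc
Zfp36: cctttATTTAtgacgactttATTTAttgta
Fos and Dusp1 carry overlapping copies in a single run, whereas Ier3 and Zfp36 carry separate copies.

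Promoters were taken from RefSeq (GRCm38.p6), which gave 8 of the 10 members, all but Egr1 and Ier2. The 250 bases before the start were searched for 4 motifs, 3 of them on both strands. TGACGT, the core of the cAMP response element bound by CREB and ATF factors, was found in 3 of 8 members (37.5%), Atf3, Fos and Dusp1, and in 6.47% of all 32851 promoters or 9.16% of the 14675 promoters of tested genes. The AP-1 site TGANTCA was in 0 of 8, in 6.75% of all and in 4.85% of those of tested genes. TATAAA on the sense strand was in Fos, in 7.59% of all and in 4.19% of those of tested genes. The CArG box, which serum response factor binds, was in Zfp36, in 1.47% of all and in 1.19% of those of tested genes. All 250 bases of this Zfp36 window lie in an exon of the GENCODE annotation, in which a start further upstream is given. Bases further upstream than the windows, and the promoters of Egr1 and Ier2, were not searched. A motif that was not found is thus absent from these windows only. The promoters that hold TGACGT are shown 5′ to 3′ with that motif, read on either strand, and TATAAA in capitals. They lie at chr12:85473640-85473889 (plus strand) for Fos, chr17:26508520-26508722 (minus) for Dusp1 and chr1:191183334-191183583 (minus) for Atf3. That of Dusp1 ends before the first exon of the GENCODE transcript used here, Dusp1-202. The last 7 bases of that of Atf3 lie in an exon of Atf3-201, and they hold all of its motif, ACGTCA as shown, except the leading A. As annotated in GENCODE, the genes Dusp1 and Atf3 start further upstream than these windows.
Fos: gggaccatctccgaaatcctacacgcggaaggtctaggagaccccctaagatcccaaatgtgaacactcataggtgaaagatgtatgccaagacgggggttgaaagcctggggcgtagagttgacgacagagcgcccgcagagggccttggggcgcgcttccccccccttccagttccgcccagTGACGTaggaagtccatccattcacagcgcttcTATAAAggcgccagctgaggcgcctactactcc
Dusp1: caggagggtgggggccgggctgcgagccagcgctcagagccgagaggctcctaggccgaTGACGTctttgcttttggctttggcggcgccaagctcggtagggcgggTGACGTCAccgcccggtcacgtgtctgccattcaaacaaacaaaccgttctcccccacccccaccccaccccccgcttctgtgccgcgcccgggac
Atf3: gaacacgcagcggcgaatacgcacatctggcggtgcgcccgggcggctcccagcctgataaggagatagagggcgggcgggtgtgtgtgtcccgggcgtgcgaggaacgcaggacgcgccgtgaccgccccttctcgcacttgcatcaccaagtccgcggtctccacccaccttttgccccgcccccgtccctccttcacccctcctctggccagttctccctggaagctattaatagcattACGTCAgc
In Dusp1 the second stretch is the palindrome TGACGTCA, in which the motif is read once on each strand. A motif in these letters does not show that a factor was bound in these cells, and no binding was measured.

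The immediate-early genes were abundant in the sorted cells of every group. Jun lay at the 99.6th percentile of the tested genes by mean CPM, Fosb at the 99th and Fos at the 98.8th. Ier3 was the lowest member, at the 74.9th percentile. Per kb of transcript, the order of the mean levels was Jun (409 CPM per kb), Fos (300.4), Fosb (187), Dusp1 (184), Junb (149.9), Atf3 (116), Egr1 (109.5), Zfp36 (93.0), Ier2 (74.6) and Ier3 (45.0). Together the members took between 0.286% and 0.774% of a library's counts. Their summed level in db/m mice was 3843 ± 388 CPM. It was 4906 ± 2540 CPM for db/db and 4533 ± 1250 CPM for db/db-dapa mice (SD, n = 3 in each group).

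Fos and Jun proteins pair to form AP-1, the transcription factor that carries an acute signal to later genes. Fos was found at 371, 359.8 and 625 CPM in the 3 db/m mice, at 436, 1255 and 661 CPM in db/db and at 1059, 584 and 349 CPM in db/db-dapa mice. Its levels overlapped between all groups, with the highest mouse in db/db and the lowest in db/db-dapa. The log2 fold change was 0.80 (95% interval -0.17 to 1.76) in db/db versus db/m and 0.56 (-0.40 to 1.51) in db/db-dapa versus db/m mice. For db/db-dapa versus db/db it was -0.24 (-1.20 to 0.71), and adjusted p was 0.456, 0.493 and 0.926 in the 3 comparisons. Fos thus differed between mice of 1 group by up to 3.03-fold, more than between the means of any 2 groups.

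Fosb, a partner of Jun proteins like Fos, was found at 546.5, 560.2 and 382 CPM in db/m, at 248, 1513 and 846.5 CPM in db/db and at 898, 829 and 535 CPM in db/db-dapa mice. Replicates 1 and 2 of the db/db group held the lowest and the highest level of all 9 mice, 6.09-fold apart, the widest range of the 10 members. The log2 fold changes were 0.81 (-0.24 to 1.86, adjusted p = 0.491) in db/db versus db/m, 0.60 (-0.44 to 1.65, adjusted p = 0.495) in db/db-dapa versus db/m and -0.21 (-1.25 to 0.83, adjusted p = 0.941) in db/db-dapa versus db/db mice.

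Jun, the AP-1 subunit with the highest level, was found at 1503, 1013 and 914 CPM in db/m, at 646, 2016 and 1275 CPM in db/db and at 1729, 1366 and 1285 CPM in db/db-dapa mice. The range in db/db mice contained all mice of the other groups. Its log2 fold changes were 0.20 (-0.56 to 0.96), 0.35 (-0.41 to 1.11) and 0.15 (-0.61 to 0.92) in the same order of comparisons. Junb, a subunit that can restrain Jun, was found at 239.7, 246 and 338 CPM in db/m, at 196, 542 and 190.3 CPM in db/db and at 342, 202 and 145 CPM in db/db-dapa mice. Apart from db/db replicate 2, the mice of the db/db group lay below all db/m mice. The log2 fold changes were 0.17 (-0.73 to 1.07), -0.26 (-1.16 to 0.64) and -0.43 (-1.33 to 0.47).

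Egr1, a zinc finger transcription factor induced by growth factors and injury, was found at 407, 401.5 and 355 CPM in db/m mice, a narrow range. It was found at 324, 871 and 529 CPM in db/db and at 658, 528 and 345.5 CPM in db/db-dapa mice. In both of these groups 1 mouse lay below and 2 lay above the db/m range. The log2 fold change was 0.57 (-0.15 to 1.28, adjusted p = 0.479) in db/db versus db/m, 0.40 (-0.32 to 1.11, adjusted p = 0.513) in db/db-dapa versus db/m and -0.17 (-0.88 to 0.54, adjusted p = 0.928) in db/db-dapa versus db/db mice.

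Atf3, a stress-induced factor that mostly represses transcription, was found at 319, 292 and 285 CPM in db/m, at 169, 322 and 116 CPM in db/db and at 308, 154 and 106 CPM in db/db-dapa mice. The db/m mice lay within 1.12-fold of each other, while 4 of the 6 db/db and db/db-dapa mice were below 170 CPM and the other 2 were at the db/m level. The mean of db/m mice was 299 ± 17.7 CPM, that of db/db mice 202 ± 107 and that of db/db-dapa mice 189 ± 105 (SD, n = 3 each). The log2 fold changes of -0.56 (-1.44 to 0.32, adjusted p = 0.574) and -0.66 (-1.54 to 0.22, adjusted p = 0.382) versus db/m did not pass the test, and for db/db-dapa versus db/db the value was -0.10 (-0.97 to 0.78).

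Ier2 and Ier3 are short genes of the same kind of response, and Ier3 is known for effects on cell survival. Ier2 was found at 111, 88.8 and 131 CPM in db/m, at 67.6, 255 and 73.9 CPM in db/db and at 153, 87.4 and 53.4 CPM in db/db-dapa mice. A single mouse raised the db/db mean above that of db/m, and the log2 fold changes were 0.26 (-0.81 to 1.34), -0.17 (-1.24 to 0.90) and -0.43 (-1.51 to 0.64).

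Ier3 was the member with the lowest unadjusted p. It was found at 49.45, 53.7 and 97.25 CPM in db/m, at 70.35, 63.0 and 27.9 CPM in db/db and at 44.0, 26.4 and 25.6 CPM in db/db-dapa mice. Each db/db-dapa mouse lay below each db/m mouse, with a gap between 44.0 and 49.45 CPM. The log2 fold change in db/db-dapa versus db/m mice was -1.06 (95% interval -1.87 to -0.25), a fold of 0.479. The unadjusted p of edgeR's quasi-likelihood test was 0.0146, and adjusted p was 0.206. It did not pass the adjusted threshold of 0.1. It did pass with DESeq2 (log2 fold change -1.07, adjusted p = 0.0915), when db/db mice were left out of the fit (-1.05, adjusted p = 0.0799) and without db/db replicate 3 (-1.05, adjusted p = 0.0577). These fits called 507, 626 and 662 genes, against 164 in the main fit. No other fit called Ier3, neither limma (-1.02, adjusted p = 0.232) nor edgeR with the replicate number as a block (-1.12, adjusted p = 0.241). Without db/m replicate 3, the mouse with the highest level, the log2 fold change was -0.70 (adjusted p = 0.49). Against db/db mice the value was -0.74 (-1.55 to 0.07, adjusted p = 0.854), and in db/db versus db/m mice -0.32 (-1.13 to 0.48, adjusted p = 0.734).

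Dusp1 and Zfp36 act as brakes on the response. Dusp1 removes phosphate from MAP kinases, and Zfp36 promotes the decay of mRNAs with AU-rich elements. Dusp1 was found at 428, 290.5 and 394 CPM in db/m, at 226, 425 and 450 CPM in db/db and at 427, 261 and 391.7 CPM in db/db-dapa mice. Its means were close, 371 ± 71.4, 367 ± 123 and 359.8 ± 87.7 CPM (SD, n = 3 each), and its log2 fold changes were -0.01 (-0.63 to 0.60), -0.04 (-0.66 to 0.57) and -0.03 (-0.65 to 0.58). A change of 2-fold, 1 on the log2 scale, lay outside these intervals.

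Zfp36 was found at 297, 208 and 222 CPM in db/m, at 276, 405 and 223 CPM in db/db and at 277, 225 and 203.5 CPM in db/db-dapa mice. It had the smallest spread within groups of the members, together with the narrow range of Dusp1: for both, the highest of the 9 mice was 1.99-fold above the lowest. Its log2 fold changes were 0.32 (-0.21 to 0.84), -0.04 (-0.57 to 0.48) and -0.36 (-0.88 to 0.17).

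**Figure D1:**
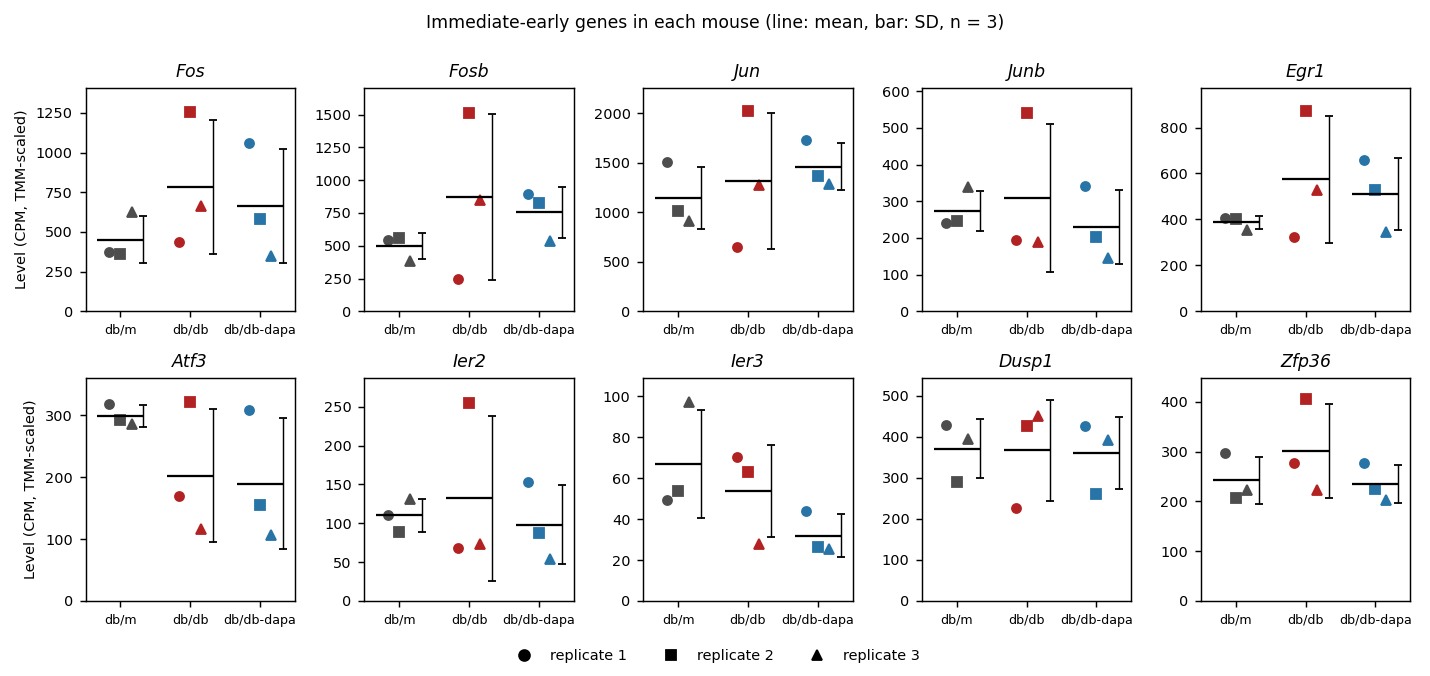
Level of each of the 10 genes (y axis, CPM after TMM scaling, from 0) in each mouse of the 3 groups (x axis), with the replicate number as the symbol, the mean as a line and the SD as a bar (n = 3). The SD is larger in db/db than in db/m mice for 9 of 10 genes, all but Ier3, db/db replicate 2 is highest of 9 for 8 genes, and the groups overlap except for Ier3 between db/m and db/db-dapa.

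In the fit over all genes, 0 of 10 members passed the thresholds (edgeR, an adjusted p below 0.1 with a fold change above 1 on the log2 scale in either direction) in db/db versus db/m mice, where 194 genes or 1.24% of those tested did. None had an unadjusted p under 0.05 there, as did 13.7% of all genes, and none had groups without overlap, as did 16.4%. In db/db-dapa versus db/m mice 0 of 10 were called against 1.05% of all, 1 (Ier3) had an unadjusted p under 0.05 against 18.2%, and 1 (Ier3 again) had groups without overlap against 28.1%. In db/db-dapa versus db/db mice 0 of 10 were called against 0% of all, 0 had an unadjusted p under 0.05 against 5.19% and 0 had groups without overlap against 10.2%. None of these shares of the members lay above the share of all genes with edgeR. DESeq2 called 0, 1 and 0 members in the 3 comparisons, beside 2.96%, 4.04% and 0.115% of the genes to which it gave an adjusted p. The 1 of 10 in db/db-dapa versus db/m was Ier3, which edgeR did not call. A single gene of 10 is too few to be read against the share of all genes. With limma 0, 0 and 0 members were called, beside 1.28%, 0.937% and 0% of all.

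The direction of the members varied. In db/db versus db/m mice 7 of 10 log2 fold changes were above 0, with a median of 0.23 against 0.02 for all genes. For db/db-dapa versus db/m mice 4 were above 0 and the median was -0.04 (all genes -0.02). For db/db-dapa versus db/db mice 1 was above 0 and the median was -0.22 (all genes -0.01). These comparisons share mice and are not independent of each other. The medians turned on 1 mouse: without db/db replicate 2 the first was -0.19 and the last 0.27, with 4 and 8 members above 0. Without db/db-dapa replicate 1 the last was -0.55, and without db/db replicate 1 it was -0.48.

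**Figure D2:**
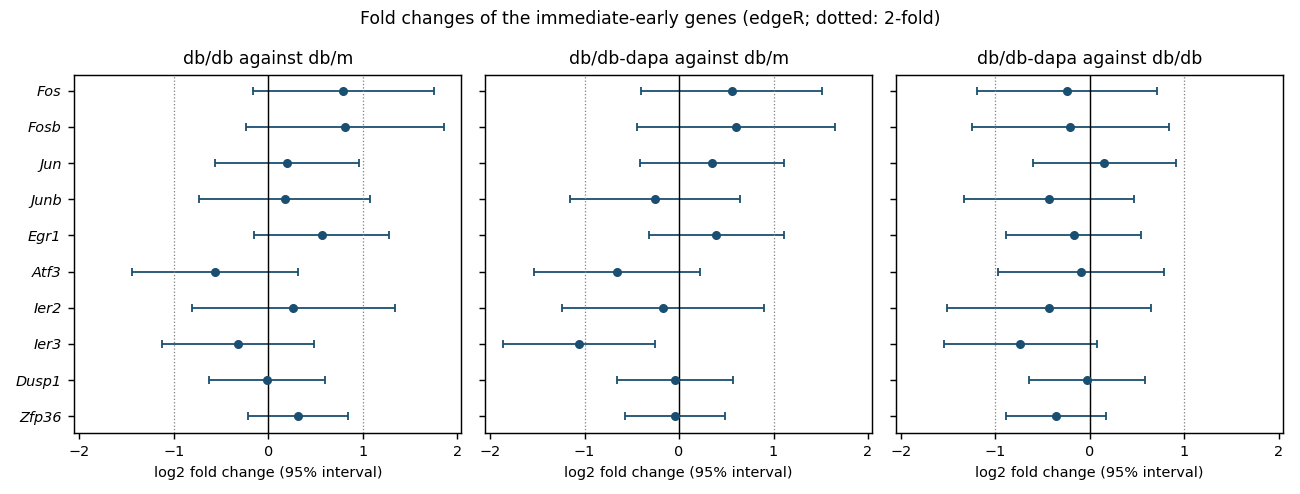
The log2 fold change (x axis) of each gene (y axis) in the 3 comparisons, with its 95% interval as a bar and 2-fold marked by dotted lines. The intervals of all genes contain 0 except that of Ier3 in db/db-dapa versus db/m mice, -1.87 to -0.25.

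Mice of the same group differed more in the members than in most genes. Their standard deviation within groups, on the scale of log2(CPM + 1), lay between the 55.2nd percentile of all tested genes (Zfp36) and the 97.4th (Fosb), and for 6 genes at the 89th or above: Fosb, Ier2 (96.5), Fos (94.7), Junb (92.6), Atf3 (92.1) and Ier3 (89.1). All tested genes include low ones, whose spread this scale understates, which can raise the percentiles of the members. The db/db group had the largest standard deviation of the 3 groups for 8 of 10 members, and for 57.7% of the 9135 genes with a mean of at least 10 CPM. The db/m group had the smallest for 7 of 10 members and for 32.3% of these genes. The median standard deviation of the members was 0.29 for db/m, 0.76 for db/db and 0.45 for db/db-dapa, against 0.23, 0.30 and 0.17 for these genes. With 3 mice a group, this difference in spread was described and not tested.

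Single mice carried this spread across most members at once. The mean log2(CPM + 1) of the 10 genes was 8.25, 8.06 and 8.28 for the db/m mice, 7.76, 9.04 and 8.06 for the db/db mice and 8.63, 8.04 and 7.70 for the db/db-dapa mice. The mouse db/db replicate 2 was the highest of all 9 for 8 members and above the mean of the gene for 10 of 10. It was not the highest for Ier3, which was highest in db/m replicate 3, nor for Dusp1, which was highest in db/db replicate 3. Within the treated group, db/db-dapa replicate 1 was the highest mouse for 10 of 10 members and replicate 3 the lowest for 9. The lowest of all 9 mice was db/db-dapa replicate 3 for 6 members and db/db replicate 1 for the other 4. The means of this score, 8.20 ± 0.12 for db/m, 8.29 ± 0.67 for db/db and 8.12 ± 0.47 for db/db-dapa (SD, n = 3 each), lay closer together than the mice within a diabetic group.

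**Figure D3:**
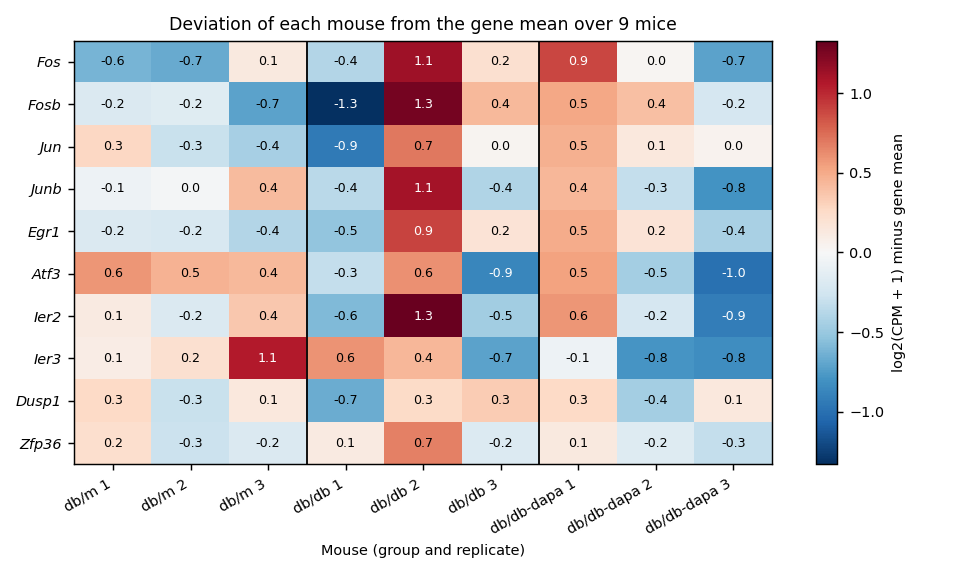
Deviation of each mouse (x axis) from the mean over 9 mice for each gene (y axis), as a difference of log2(CPM + 1), in color and in print. The column of db/db replicate 2 is above 0 for all 10 genes and that of db/db-dapa replicate 3 is the lowest for 6.

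The members did not vary as a single block. Over the 9 mice, Pearson's r of a member with the mean of the other 9 was 0.97 for Ier2, 0.93 for Junb, 0.81 for Egr1, 0.78 for Fos and 0.73 for Zfp36. It was lower for Jun (0.63), Atf3 (0.62), Fosb (0.60) and Dusp1 (0.45) and lowest for Ier3 (0.20). Among pairs, Junb and Ier2 were closest (r = 0.98) and Fosb and Jun also varied together (r = 0.91), while Fosb and Ier3 were most opposed (r = -0.37). These values describe 9 mice that share their libraries across genes, and db/db replicate 2 lies at the end of most of them.

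Of the 9125 other genes with a mean of at least 10 CPM, those whose pattern over the 9 mice was most like the mean of the members were Btg2 (r = 0.929), Id1 (0.913), Hbb-bt and Hbb-b2 (both 0.907), Bnip1 (0.886) and Prr3 (0.882). With the mice farthest from the median left out (replicate 2 of db/db and replicate 1 of db/db-dapa), r was 0.789 for Btg2, 0.809 for Id1, 0.833 for both globin genes, 0.681 for Bnip1 and 0.907 for Prr3. Btg2, an antiproliferative gene of the same kind of early response, was found at 137, 153 and 145 CPM in db/m, at 115, 303 and 122 CPM in db/db and at 181, 138 and 73.2 CPM in db/db-dapa mice. Id1, an inhibitor of helix-loop-helix factors, reached 146 CPM in db/db replicate 2 and lay between 7.24 and 52.2 CPM elsewhere. Hbb-bt and Hbb-b2 encode beta globins and have identical values in this table, so that they count as 1 pattern.

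The mice with the highest levels of the members also stood out in some lists of markers of cells other than the proximal tubule, but not in others. The 4 erythroid markers summed to 941 CPM in db/db replicate 2 and to between 19.5 and 277 CPM in the other 8 mice. The 4 podocyte markers summed to 249 CPM in db/db-dapa replicate 1 and to between 17.6 and 79.2 CPM elsewhere, and the 5 endothelial markers to 148 CPM in that mouse and to between 34.2 and 120 CPM elsewhere. No gene of these 3 lists was at 0 in any mouse. The 6 macrophage markers, with sums of 28.6 to 101 CPM, were highest in db/db replicate 1, the mouse with the lowest mean of the members in its group. That mouse had 79.2 CPM of podocyte and 118 CPM of endothelial markers, against 66.8 and 120 CPM in db/db replicate 2. Loop and distal nephron markers summed to 1630 CPM in db/db replicate 1 and 771 CPM in replicate 2, and collecting duct markers to 381 and 232 CPM. In db/db-dapa replicate 1 these lists, at 852 and 218 CPM, were the highest of the group. The 4 T and B cell markers summed to between 3.28 and 22 CPM and the 5 fibroblast and mural markers to between 2.71 and 24.6 CPM, with up to 2 genes of each list at 0 in a mouse. Proximal tubule markers summed to 14500 CPM in db/db replicate 2 and 17600 CPM in db/db-dapa replicate 1, in each case the lowest of the group (14500 to 21500 and 17600 to 21800 CPM). The part of these cells in the members' levels was not tested.

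**Figure D4:**
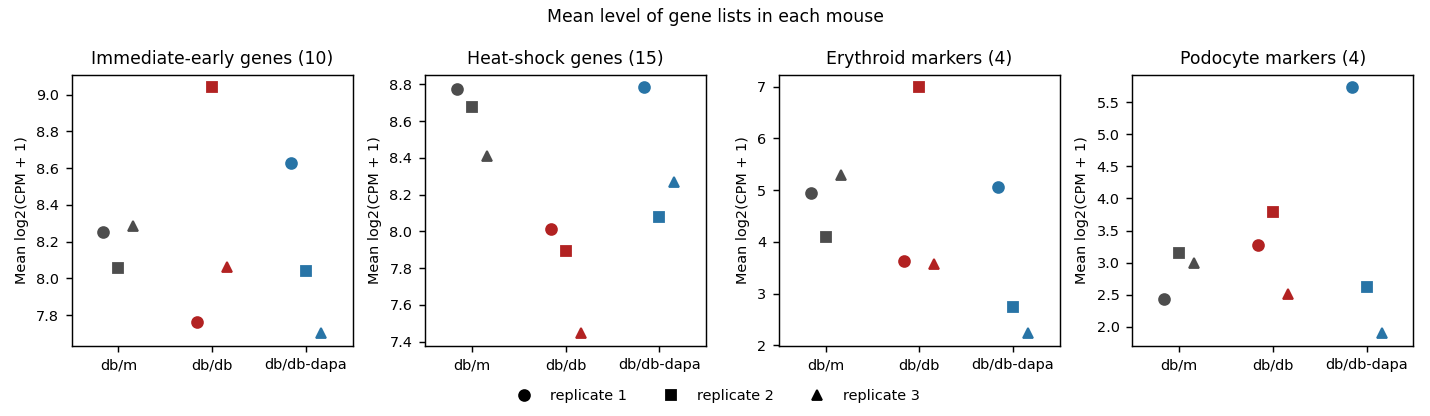
Mean log2(CPM + 1) of the 10 members, the 15 heat-shock genes, the 4 erythroid markers and the 4 podocyte markers (y axes, with separate ranges that do not start at 0) in each mouse of the 3 groups (x axis, symbols give the replicate). For the members db/db replicate 2 is highest at 9.04, as it is for the erythroid markers, and db/db-dapa replicate 1 is highest for the podocyte markers.

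Among 56 other primary response genes, which include further AP-1 subunits, Egr and Nr4a family members and early cytokines, 3 were called in db/db versus db/m mice, against 1.24% of all genes. Sgk1, a kinase that regulates sodium transport, rose, and Arc and Phlda1 fell. Sgk1 was found at 161, 94.2 and 92.6 CPM in db/m, at 299, 329 and 307 CPM in db/db and at 274, 179 and 267 CPM in db/db-dapa mice, without overlap between db/m and either other group. Its log2 fold change was 1.43 (standard error 0.25, adjusted p = 0.0239) in db/db and 1.05 (standard error 0.25, adjusted p = 0.0987) in db/db-dapa versus db/m mice. The call in db/db held in 9 of 9 fits that left out a mouse and that in db/db-dapa in 3 of 9.

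Arc, best known as an activity-regulated gene of neurons, was found at 24.9, 27.04 and 14.0 CPM in db/m, at 8.16, 8.003 and 10.7 CPM in db/db and at 7.52, 7.35 and 5.66 CPM in db/db-dapa mice, again without overlap with db/m. It fell by 1.28 on the log2 scale in db/db (standard error 0.28, adjusted p = 0.0713) and by 1.69 in db/db-dapa mice (standard error 0.28, adjusted p = 0.0333). Phlda1 fell by 1.34 in db/db mice (standard error 0.32, adjusted p = 0.0991). With a mouse left out, the call of Arc in db/db mice held in 3 of 9 fits, that in db/db-dapa in 5 of 9 and that of Phlda1 in 2 of 9. None of the 56 genes was called in db/db-dapa versus db/db by edgeR. There 4 had an unadjusted p under 0.05, all lower, against 5.19% of all genes. The median of the 56 genes was -0.11, -0.16 and -0.15 in the 3 comparisons, but these values turned on single mice. With a mouse left out, the first lay between -0.315 (db/db replicate 2 omitted) and 0.103 (db/db replicate 3 omitted), the second between -0.395 (db/db-dapa replicate 1 omitted) and -0.015 (db/db-dapa replicate 3 omitted) and the third between -0.313 (db/db-dapa replicate 1 omitted) and 0.194 (db/db replicate 2 omitted).

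Of 27 kinases and factors upstream of the members, such as MAP kinases, ribosomal S6 kinases, SRF and the Elk factors, 0 were called by edgeR in any comparison. Of these, 3, 5 and 0 had an unadjusted p under 0.05, all higher, against 13.7%, 18.2% and 5.19% of all genes in either direction. The medians of the 27 were 0.19, 0.29 and 0.12. With a mouse left out, the first was as low as -0.068 (without db/db replicate 3) and the last as low as -0.021 (without db/db replicate 1), while the second lay between 0.179 and 0.406. The highest in db/db versus db/m mice was Rps6ka5, a kinase that phosphorylates CREB and histone H3, at 1.79 (adjusted p = 0.232) with levels of at most 3.06 CPM, and the next was Elk4 at 0.76. Rps6ka1 (-0.39) and Map2k6 (-0.37) were lowest. Of 13 tubular injury genes 0 were called by edgeR, and 3, 3 and 1 had an unadjusted p under 0.05 (13.7%, 18.2% and 5.19% of all genes). Their medians were -0.44, -0.21 and 0.03. Spp1, which encodes osteopontin, had 719 ± 115 CPM in db/m mice, 1340 ± 536 CPM in db/db mice and 1200 ± 221 CPM in db/db-dapa mice (SD, n = 3, adjusted p = 0.207 for db/db versus db/m), and Cd44 was next highest at 0.89. Krt20 and Sox9 were the lowest. Krt20 lay at 1.11 to 10.5 CPM in db/m mice and at or below 1.02 CPM, about the level of 3 counts, in db/db mice (adjusted p = 0.187). Sox9 had a log2 fold change of -2.30 (adjusted p = 0.203) at levels of at most 19.2 CPM.

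Heat-shock genes encode chaperones and, like the members, can respond to the handling of cells. All 15 were lower in db/db than in db/m mice, with a median log2 fold change of -0.85. Of the 15, 10 had groups without overlap, against 16.4% of all genes. The list was chosen with earlier results of these data known, so that its shares beside those of all genes are descriptive. Dnaja1 fell by 1.11 (adjusted p = 0.0313), Dnajb1 by 1.20 (adjusted p = 0.0657) and Bag3 by 1.26 (adjusted p = 0.0645). All 3 encode co-chaperones of Hsp70, and they were the genes of this list that were called, against 1.24% of all genes. Dnajb1 had 243 ± 5.75 CPM in db/m mice, 106 ± 10.8 CPM in db/db mice and 196 ± 79.9 CPM in db/db-dapa mice (SD, n = 3). Without db/m replicate 1, 0 of these were called, and the median then was -0.86. In db/db-dapa versus db/db mice 13 of 15 were higher, with a median of 0.68, and 0 were called. Of the 15, 9 had an unadjusted p under 0.05, all higher, against 5.19% of all genes. The db/db mice are shared by this comparison and that with db/m mice, so that the fall and the rise are not independent. In db/db-dapa versus db/m mice the median was -0.20 and 0 were called (1 had an unadjusted p under 0.05, against 18.2% of all genes). The mouse db/db replicate 2, highest for the members, had a summed heat-shock level of 8640 CPM, the highest of its group (6840 to 8640 CPM) but below the 12900 to 16300 CPM of db/m mice. By the mean of log2(CPM + 1), db/db replicate 1 was higher (8.01 and 7.89). For db/db-dapa replicate 1, highest of its group for the members, both heat-shock measures were also the highest of the group (16100 CPM and 8.79).

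**Figure D5:**
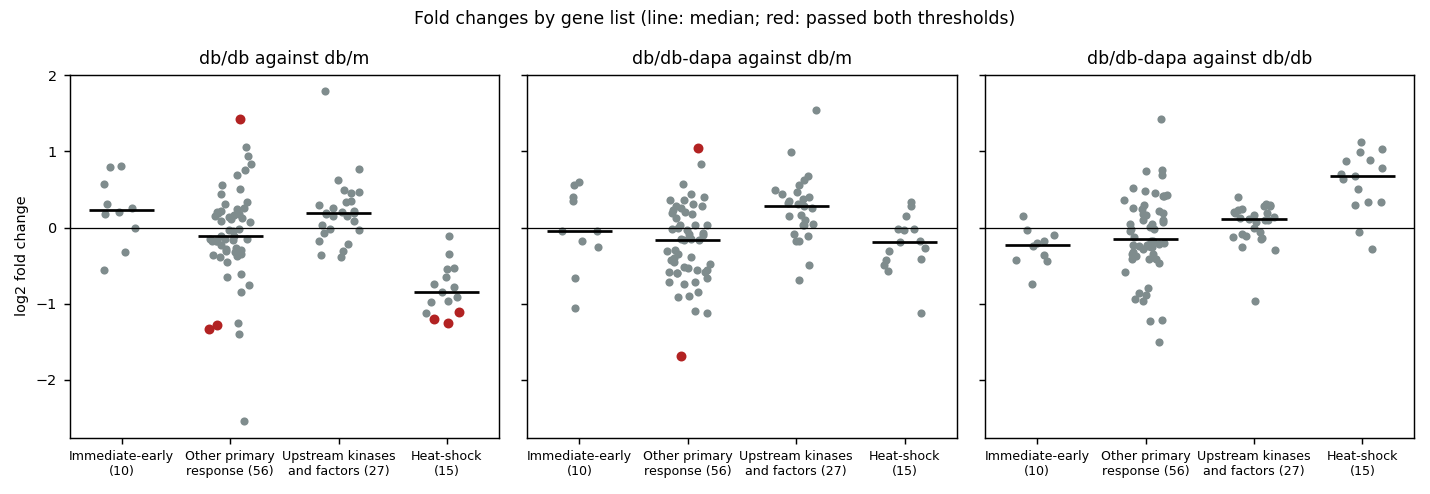
The log2 fold change (y axis) of each gene of 4 lists (x axis) in the 3 comparisons, with the median as a line and genes that passed both thresholds in red. The 10 members hold 0 red points, and all 15 heat-shock genes lie below 0 in db/db versus db/m mice.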

How the data were processed

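Poly(A) RNA of FACS-sorted proximal tubular cells from 9 mice was sequenced by the authors as 101-base single-end reads of a stranded library. Groups and replicate numbers follow the labels. Their tissue field reads kidney, and the sorting is taken from the paper. The submitters' processing notes name TopHat2 2.0.13, Bowtie2 2.2.3, SAMtools 0.1.19, Cufflinks 2.2.1 and mm10. The deposited table, which is named as FPKM, holds estimated counts: 90.95% of all values and 85.9% of those above 0 are whole (within 1e-09), and its column sums differ. How the authors counted, and whether strand was used, is not given in the sources used here, so that reads of a gene and an antisense partner cannot be told apart. Rows lacking a gene name and unused sample columns numbered 0 each.

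Values were rounded and genes at or above 0.3 CPM in at least 2 of 9 mice were kept. All 3 groups were fitted together, without pairing, with edgeR 4.0.16 (TMM, quasi-likelihood test, R 4.3.3), with Benjamini-Hochberg adjustment over 15583 genes. The plan named edgeR for counts, and limma in case the table held FPKM. Standard errors were derived from the F value, and intervals are 95% intervals. Calls required an adjusted p below 0.1 together with a log2 fold change above 1 in size. List scores are means of log2(CPM + 1), which understates changes of low genes. DESeq2 1.42.0, limma 3.58.1, other scalings and filters and fits without each mouse were alternatives. The test was checked on simulated data. Floors of 3 counts cover counting error.

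All members are described. Of other lists, called genes are named (at most 6, by adjusted p), or otherwise the 2 highest and 2 lowest in db/db versus db/m, and for likeness the 6 genes with the highest r. Marker lists are given as sums. The members and lists were chosen with earlier results of these data known, so that their shares beside those of all genes are descriptive. Structures are from GENCODE M21 and promoters from RefSeq.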

Additional observations from a re-analysis of the deposited data

How the results depend on the processing

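With DESeq2, 363, 507 and 13 genes were called in db/db versus db/m, db/db-dapa versus db/m and db/db-dapa versus db/db mice (194, 164 and 0 with edgeR on all mice). When each pair of groups was fitted alone, 114 and 626 were called in the first 2, and without a filter 275 in the second. With either DESeq2 or the pair of groups alone, 1 member (Ier3) was called in db/db-dapa versus db/m mice. Leaving out 1 mouse gave 84 to 230, 14 to 662 and 0 to 272 called genes. The ends were reached without db/m replicate 1 (84), db/db-dapa replicate 2 (14) and db/db replicate 3 (230, 662 and 272). Between 0 and 0, 0 and 1, and 0 and 0 members were called in these fits. The member medians ranged from -0.191 (without db/db replicate 2) to 0.470, from -0.175 to 0.102 and from -0.554 to 0.266 (without db/db replicate 2). With 3 mice per group, single mice moved these values, and counting error was not compared with the spread between mice.

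With scaling to library totals, the median of all genes in db/db versus db/m was 0.125 (0.02 with TMM). With it, Dusp1 was at 0.091 in db/db, and Dusp1 and Zfp36 were both at 0.005 in db/db-dapa versus db/m mice. With limma at pseudocounts of 1 and 0.1, Ier2 was at -0.005 and -0.007 in db/db versus db/m, and in db/db-dapa versus db/db mice Fosb was at 0.107 and 0.108 and Dusp1 at 0.004 in both. These members crossed 0 when 1 mouse was left out. In db/db versus db/m they were Jun (-0.251 to 0.525), Junb (-0.508 to 0.426), Ier2 (-0.638 to 0.572), Ier3 (-0.561 to 0.033) and Dusp1 (-0.189 to 0.240). In db/db-dapa versus db/m they were Ier2 (-0.640 to 0.139), Dusp1 (-0.192 to 0.149) and Zfp36 (-0.170 to 0.129). In db/db-dapa versus db/db they were Fos (-0.741 to 0.274), Fosb (-0.647 to 0.459), Jun (-0.174 to 0.603), Junb (-0.825 to 0.251), Egr1 (-0.457 to 0.258), Atf3 (-0.625 to 0.414), Ier2 (-0.901 to 0.467) and Dusp1 (-0.284 to 0.162).

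Same-numbered mice were not alike throughout: their deviations correlated at -0.323 to 0.563, and 4 of 9 mice correlated best with their own number. The highest values were those of db/db with db/db-dapa mice, 0.563 for number 3 and 0.402 for number 1. Whether mice of the same number were prepared together was not tested. With the replicate number as a block, 185, 167 and 0 genes and 0, 0 and 0 members were called, and the member medians were 0.124, -0.047 and -0.182.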

Other observations

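Because single mice raised or lowered most members together, differences between 2 members within a mouse were also described. This was chosen after the values were seen and carries no test. Of the 45 pairs of members, the within-mouse log2 difference did not overlap between groups for 6 in db/db versus db/m, 18 in db/db-dapa versus db/m and 2 in db/db-dapa versus db/db mice, or 13.3%, 40% and 4.44% of pairs. Of single genes, 16.4%, 28.1% and 10.2% did not overlap in these comparisons. A difference within a mouse is another quantity than the level of a gene. The share over pairs of other genes was not computed, so that no excess or lack can be read from these values. Pairs share genes, so that the shares of pairs are not counts of independent differences. Of the 18, 6 involve Atf3 and 7 involve Ier3. One of them is the difference between Atf3 and Egr1. Atf3 minus Egr1 was -0.38 ± 0.07 for db/m, -1.52 ± 0.63 for db/db and -1.52 ± 0.37 for db/db-dapa (SD, n = 3 each), with the lowest db/m mouse at -0.46 and the highest of the others at -0.93. Against Fos, Atf3 lay at -1.13 to -0.22 for db/m, -2.51 to -1.36 for db/db and -1.91 to -1.71 for db/db-dapa. The differences of Atf3 from Fosb and Jun overlapped between db/m (-0.94 to -0.42 and -2.23 to -1.68) and db/db mice (-2.86 to -0.55 and -3.45 to -1.93), but not between db/m and db/db-dapa mice (-2.42 to -1.54 and -3.59 to -2.49). Against Junb and Ier3 the differences overlapped in both comparisons with db/m. Against Ier2 and Dusp1 they overlapped in db/db versus db/m, and against Zfp36 in db/db-dapa versus db/m. Relative to Fos and Egr1, but to none of the other members, Atf3 was thus lower in all 6 db/db and db/db-dapa mice than in the db/m mice. These include replicate 2 of db/db and replicate 1 of db/db-dapa, in which the level of Atf3 was 322 and 308 CPM. The db/m mice are shared by both comparisons, and with 3 mice against 3 an exact permutation test cannot give a p under 0.1.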
